A study of Mus musculus with 5 samples.

Results

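The genes described here serve the making and the turnover of proteins: ribosomal proteins (Rpl, Rps), translation initiation factors (Eif), proteins of the spliceosome and of pre-mRNA (Snrp, Hnrnp, Srsf, Sf3), chaperones (Cct, Hsp), the proteasome (Psm) and nuclear import (Kpn). They are the probes whose single gene symbol starts with 1 of 13 prefixes, a rule on names that was set with earlier results of these data known. The rule found 39 probes of 39 genes among 897 probes, of which 787 carry a single symbol and name 773 genes. The prefixes Eef and Ddx had no member, so 11 of 13 prefixes are represented. A further 3 probes pair a symbol with such a prefix with other genes and were left out.

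Total RNA of mouse cerebellum was hybridised to arrays at embryonic day 18 (E18), postnatal day 7 (P7) and days 14 (P14), 21 (P21) and 56 (P56) after birth. No strain, genotype, sex or number of animals is given in the sources used here. Each age has 1 column of values, a mean over 2 array experiments, so no difference below has a replicate check and no p-value is given, and the small number of arrays limits the precision. A value was read as a percent of the probe's own highest age, so it shows how much of a probe's peak is left at an age and not whether one gene is more abundant than another.

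Ribosomes translate mRNA after initiation factors have loaded it, and the spliceosome, built on small nuclear ribonucleoproteins (snRNPs), removes introns before the mRNA leaves the nucleus. New proteins fold with the help of chaperones, and the proteasome degrades proteins marked with ubiquitin. In the mouse cerebellum, granule cell precursors multiply in the outer layer during the first postnatal weeks, then stop dividing, migrate inward and form synapses.

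All 39 members were lower in the adult (P56) than at E18, as were 69.7% of all probes, and 29 of them fell, which here means a difference of 2-fold or more, while 0 rose. Over all 897 probes of the table, 52.5% fell and 22.6% rose. The members' differences ran from -2.72 to -0.41 (log2) with a median of -1.28, against a median of -1.07 over all probes. Every member had its highest value at E18 (18 probes) or P7 (21 probes), as did 68.5% of all probes. Of the 614 probes of the table that peaked at these ages 75.4% fell, with a median of -1.37, so the members' share of 74.4% is near that of early-peaking probes in general, a comparison added after the values were seen. In RNA of whole tissue, fewer cells of a type and less RNA per cell cannot be told apart.

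**Figure D1:**
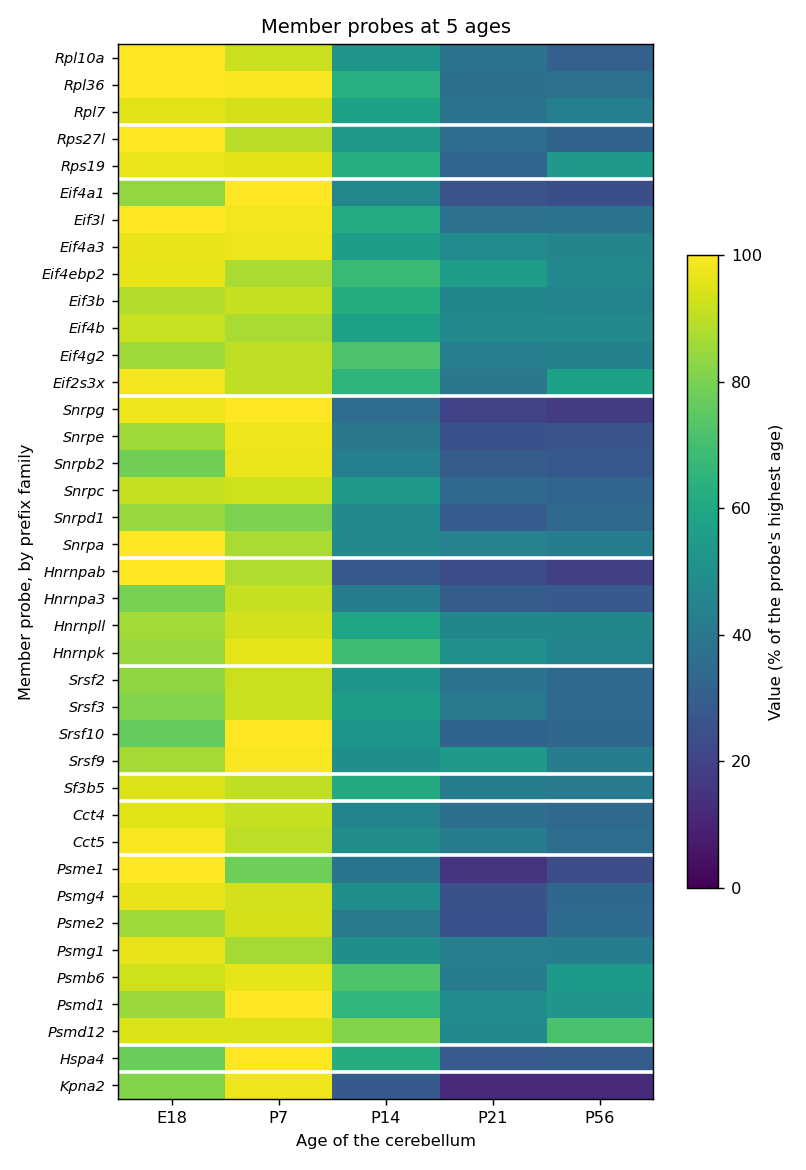
Values of the 39 member probes (rows, grouped by prefix family between white lines and ordered by their P56 against E18 difference) at 5 ages (columns), coloured by percent of the probe's highest age. Values lie between 76.5% and 100% at E18 and between 12.3% and 71.1% at P56.

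The size of these falls depends on how the 5 columns are scaled to each other, which the sources used here do not describe. Dividing each column by its median moved the median of all probes by 1.01 (log2), and quantile normalization moved it by 0.85. Under the first scaling 4 members fell, namely Kpna2, Snrpg, Hnrnpab and Psme1, and 10 were higher at P56 than at E18, all by less than 2-fold. The members' share that fell was then 10.3%, below the 16.4% of all probes, and the share that was higher was 25.6%, against 47.8%. Under the second 6 fell, the same 4 with Rpl10a and Rps27l, and 5 were higher, again by less than 2-fold, which makes 15.4% fallen against 23% of all probes, and 12.8% higher against 41.7%. The larger share of members than of all probes that fell 2-fold thus holds for the deposited values and is turned round under both scalings, while the share that was lower by any amount was larger in the members under all 3. The highest age moved to P14 for 4 members, P21 for 3 and P56 for 4 under the first scaling, and to P14 for 2 under the second. Relative to the median of all probes, the members' median was -0.21 with the deposited values and -0.11 with quantile normalization; division by column medians cannot change this difference.

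**Figure D2:**
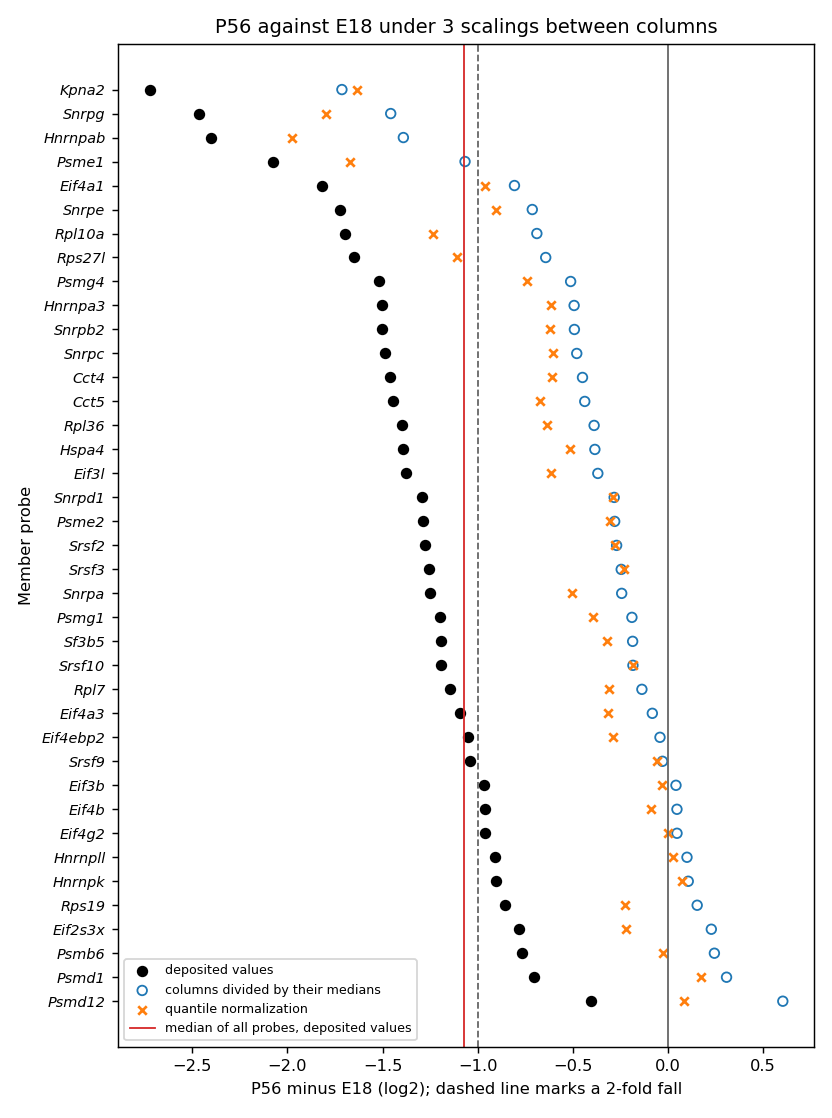
Difference between P56 and E18 (log2, x axis) of each member probe (y axis) with the deposited values (black), with columns divided by their medians (blue circles) and after quantile normalization (orange crosses), with the median of all 897 probes in red. Black points lie below 0 for all 39 members, and 4 members pass the dashed 2-fold line with both other scalings.

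Ribosomal protein genes, 3 of the large subunit and 2 of the small one, stood between 32.5% and 38.7% at P21. Rpl10a, a protein of the large subunit, stood at 100%, 91.8%, 51.6%, 38.5% and 30.8% from E18 through P56 in order of age, a fall of 3.25-fold. Rps27l, a close relative of the small-subunit protein gene Rps27, ran in parallel with 100%, 89.7%, 53.8%, 35.6% and 31.8% (3.14-fold). Both were lower at each later age, whereas the other 3 genes had their lowest value at P21. Rpl7 went through 95.4%, 93.4%, 57.3%, 38.7% and 43.1% (2.21-fold lower at P56 than at E18), and Rpl36, which fell 2.64-fold, was at 36.8% at P21 and 37.8% at P56. Rps19, a small-subunit protein gene, was the one within 2-fold between E18 and P56, with 97.0%, 96.0%, 62.2%, 32.5% and 53.6%. At P21 its value was the lowest of the 5 genes. Thus 4 of 5 ribosomal genes fell from E18 to P56 (median -1.40), against 0 of 5 with columns divided by their medians (median -0.39, with Rps19 then higher at P56) and 2 of 5 with quantile normalization. Ribosomal protein genes and those of Sm proteins have many processed copies in the mouse genome, and the sources used here give no probe sequences, so signal from such copies was not separated.

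The 8 Eif genes had the smallest median change of the prefix families. Of them 4 of 8 fell, with a median of -1.01, which is 0.06 above the median of all probes. With columns divided by their medians 0 of 8 fell and 4 of 8 were higher at P56, and with quantile normalization 0 of 8 fell and 1 was higher. Eif4a1, the RNA helicase that unwinds the start of mRNAs, moved most, with 84.0%, 100%, 46.3%, 25.5% and 23.8% in order of age (3.52-fold lower at P56 than at E18). Its cofactor gene Eif4b went from 91.7% to 47.1% (1.95-fold). Of 2 subunit genes of eIF3, the scaffold that joins mRNA to the small ribosomal subunit, Eif3l fell 2.60-fold and Eif3b stood at 88.4% and 45.2% (1.96-fold). Eif2s3x, the X-linked gene of the gamma subunit of eIF2, which delivers the initiator tRNA, differed least, with 98.1%, 90.3%, 65.2%, 39.6% and 57.0%. Eif4g2, a scaffold used in cap-independent initiation, held 72.0% at P14 and stood at 42.8% at P21 and 44.0% at P56 (1.95-fold lower than at E18).

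Of the Eif genes, 2 encode no initiation factor. Eif4ebp2 encodes a repressor that binds the cap-binding factor eIF4E and is the main form of its kind in brain. It was lower at each later age, with 96.4%, 87.5%, 68.0%, 55.8% and 46.5% (2.07-fold). Eif4a3 encodes a helicase of the exon junction complex, which marks spliced mRNAs, and fell 2.13-fold, from 96.8% to 45.4%. Without them 2 of the 6 initiation factor genes fell, Eif4a1 and Eif3l, and the median was -0.97. The Psm genes without the assembly chaperone genes Psmg1 and Psmg4 then changed less, with 2 of 5 fallen and a median of -0.77.

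**Figure D3:**
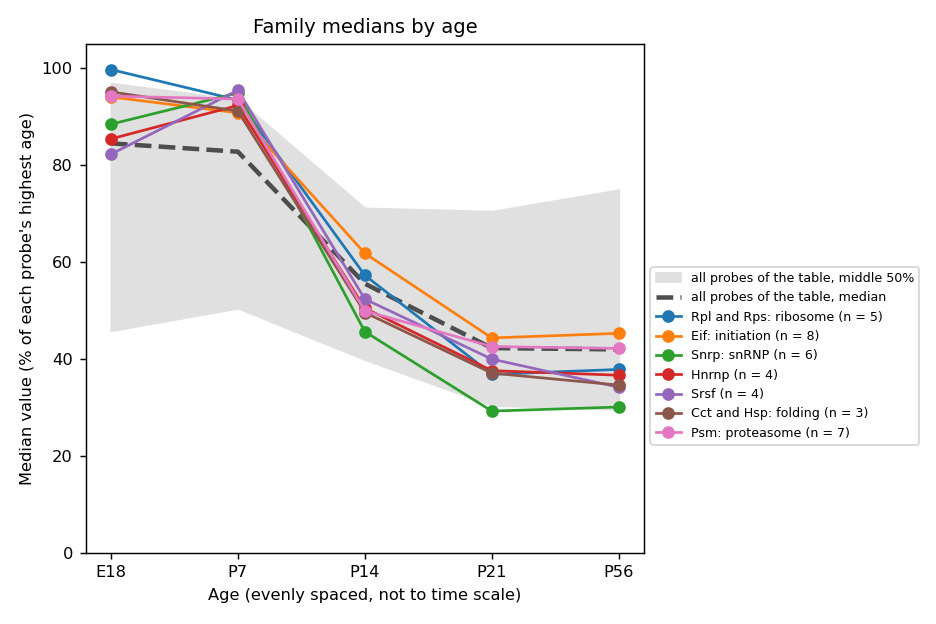
Median value of 7 groups of families (lines, number of probes in the key) at 5 ages (x axis, evenly spaced), in percent of each probe's highest age, with the median (dashed) and middle 50% (grey) of all 897 probes. The 7 lines lie between 82.3% and 99.7% at E18 and between 29.2% and 44.3% at P21, and the Snrp line is the lowest of the 7 from P14 on.

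Genes of snRNP proteins all fell, 6 of 6, and had a median of -1.50 that was the lowest of the families with more than 1 member and -0.43 relative to all probes. With columns divided by their medians 1 of 6 fell and with quantile normalization 1 of 6, Snrpg both times, and 6 of 6 remained lower at P56 under either scaling. Snrpg, Snrpe and Snrpd1 encode proteins of the Sm ring that surrounds the RNA of most spliceosomal snRNPs. Snrpg was at 97.5% at E18 and 99.9% at P7, then at 35.9%, 20.0% and 17.6% at P14, P21 and P56 (5.53-fold lower at P56 than at E18). Snrpe, at 85.7% at E18, fell 3.30-fold, and Snrpd1 fell 2.45-fold, from 84.5% to 34.5%, so the single probes of these genes differed in the size of the fall. Snrpe (-1.72) and Snrpd1 (-1.29) differed by about as much as 2 probes of the same gene, for which the median gap was 0.38 (log2, 14 genes). Snrpa and Snrpc belong to the U1 snRNP, which recognises the 5′ splice site, and Snrpb2 to the U2 snRNP, which recognises the branch point. Snrpa moved least of the family, with 99.9%, 87.4%, 48.0%, 44.2% and 41.9% (2.38-fold), while Snrpc fell 2.81-fold and Snrpb2 2.83-fold. Sf3b5, a small subunit gene of the SF3B complex of the U2 snRNP, went through 94.6%, 90.3%, 61.3%, 42.2% and 41.3% (2.29-fold).

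The hnRNP genes, which encode proteins that coat pre-mRNA and often repress splice sites, fell in 2 of 4 cases, and in 1 of 4, Hnrnpab, with either other scaling. Hnrnpab stood at 100% at E18 and 88.1% at P7 and had reached 27.7% by P14, followed by 22.8% and 18.9% (5.28-fold lower at P56 than at E18). Hnrnpa3 fell 2.83-fold, from 79.5% to 28.1%. In contrast, Hnrnpk, which binds C-rich RNA, was within 2-fold between E18 and P56, with 84.6%, 96.2%, 69.0%, 50.7% and 45.2%. Hnrnpll, a regulator of alternative splicing, was also within 2-fold between these ages, at 86.2% and 45.9%. Hnrnpk and Hnrnpll were both highest at P7, Hnrnpll at 93.3%, and from that age to P56 both were lower by more than 2-fold. These last 2 genes were higher at P56 than at E18, by less than 2-fold, with columns divided by their medians and with quantile normalization. All 4 SR protein genes, which mostly promote exon inclusion, fell by similar amounts, between 2.05-fold and 2.43-fold. Srsf2 went through 83.3%, 92.0%, 52.4%, 38.5% and 34.3%, the largest fall of the 4. Srsf9, with the smallest, stood at 86.6%, 98.9%, 49.9%, 53.7% and 42.2%, and was the single member that was higher at P21 than at P14. Srsf3 fell 2.39-fold and Srsf10, an atypical SR protein gene whose product can repress splicing, 2.29-fold; with either other scaling 0 of the 4 fell, and all 4 were lower at P56.

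Chaperone genes were few. Cct4 and Cct5 encode subunits of the same ring-shaped chaperonin, which folds actin and tubulin, and their profiles were close. Cct4 had 95.1%, 91.2%, 44.6%, 37.1% and 34.6% (2.75-fold lower at P56 than at E18), and Cct5 99.0%, 90.2%, 49.6%, 42.5% and 36.3% (2.73-fold). Hspa4, of the Hsp110 group that helps Hsp70 release its nucleotide, had its highest value at P7, with 77.6%, 100%, 61.8%, 28.8% and 29.5%, a fall of 2.63-fold from E18 to P56. With columns divided by their medians or with quantile normalization 0 of these 3 fell, and all 3 were lower at P56.

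Of the 7 proteasome genes 4 fell, and they divided by the part of the machine they encode, a grouping made after the values were seen. The 3 genes of the 26S proteasome itself were all within 2-fold between E18 and P56, though all 3 were lower at P21 than at P56. Psmb6, a catalytic subunit of the core, stood at 92.6% and 54.5%. At P21 it was at 42.6%, more than 2-fold lower than at E18. Psmd1, of the regulatory particle, stood at 84.9% and 52.2%, with 48.7% at P21. Psmd12, also of the regulatory particle, differed least of all 39 members, with 94.2%, 94.8%, 81.5%, 47.9% and 71.1% (-0.41). Their median of -0.70 was 0.37 above that of all probes, all 3 were higher at P56 with columns divided by their medians, and 2 of 3 were with quantile normalization. The other 4 Psm genes fell. Psme1 and Psme2 encode the alpha and beta subunits of the PA28 activator, an alternative cap induced by interferon gamma that favours the making of antigenic peptides. Psme1 fell 4.22-fold, with 100%, 77.9%, 38.7%, 15.6% and 23.7%, and Psme2 fell 2.45-fold, with 85.9%, 93.6%, 41.8%, 25.1% and 35.1%. Psmg1 and Psmg4 encode chaperones that assemble the core, and fell 2.30-fold and 2.87-fold. Of these 4, 1 fell under either other scaling, Psme1.

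Kpna2, the only Kpn gene measured, fell most of all 39 members. Its product, importin alpha 1, carries proteins with a nuclear localisation signal into the nucleus together with importin beta and is known for high levels in dividing cells. It stood at 81.5%, 97.3%, 28.4%, 12.4% and 12.3% in order of age, a fall of 6.60-fold that was 3.28-fold with columns divided by their medians and 3.10-fold with quantile normalization.

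The sequence upstream of the start is shown for the 4 members that fell under all 3 scalings and for Psmd12, so that their promoters can be set side by side. Psmd12 differed least with the deposited values, but not under either other scaling (0.60, higher at P56, with columns divided by their medians). RefSeq promoters of assembly GRCm38.p6 were matched by symbol for 32 of the 39 genes, and the 250 bases before the start are printed 5′ to 3′ on the gene's strand. Capitals mark matches, on either strand, to 5 searched motifs: ETS (CCGGAAG), the E-box (CACGTG), the CCAAT box (CCAAT), the core of the antioxidant response element (TGACNNNGC) and SP1 (GGGCGG).
Kpna2 (chr11:106999526-106999775, minus strand): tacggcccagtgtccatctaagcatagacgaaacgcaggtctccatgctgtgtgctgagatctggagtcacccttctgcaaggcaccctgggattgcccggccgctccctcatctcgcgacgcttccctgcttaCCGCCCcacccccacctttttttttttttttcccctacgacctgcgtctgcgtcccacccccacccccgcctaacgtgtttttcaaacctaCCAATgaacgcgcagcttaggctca
Snrpg (chr6:86371290-86371539, plus strand): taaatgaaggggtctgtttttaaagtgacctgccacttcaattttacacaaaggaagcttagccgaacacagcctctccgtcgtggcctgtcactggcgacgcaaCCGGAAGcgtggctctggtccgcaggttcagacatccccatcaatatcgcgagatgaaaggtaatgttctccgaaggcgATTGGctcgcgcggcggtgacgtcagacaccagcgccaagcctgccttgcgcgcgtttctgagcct
Hnrnpab (chr11:51606882-51607131, minus strand): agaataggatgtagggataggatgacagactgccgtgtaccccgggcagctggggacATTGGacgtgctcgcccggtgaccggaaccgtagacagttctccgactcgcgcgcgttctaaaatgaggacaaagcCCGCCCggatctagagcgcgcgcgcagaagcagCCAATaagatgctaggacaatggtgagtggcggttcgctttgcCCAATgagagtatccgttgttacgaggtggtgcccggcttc
Psme1 (chr14:55578244-55578493, plus strand): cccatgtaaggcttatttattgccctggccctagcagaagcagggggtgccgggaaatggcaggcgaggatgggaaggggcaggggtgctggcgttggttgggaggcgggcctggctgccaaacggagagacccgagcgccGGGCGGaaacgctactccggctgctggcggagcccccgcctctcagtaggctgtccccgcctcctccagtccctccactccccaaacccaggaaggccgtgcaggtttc
Psmd12 (chr11:107479278-107479527, plus strand): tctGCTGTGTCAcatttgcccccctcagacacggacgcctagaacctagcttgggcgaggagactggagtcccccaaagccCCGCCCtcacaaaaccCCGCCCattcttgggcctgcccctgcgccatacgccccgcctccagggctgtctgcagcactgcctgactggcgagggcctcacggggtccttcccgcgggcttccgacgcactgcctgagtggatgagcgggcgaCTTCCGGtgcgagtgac

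The CCAAT letters occur in Kpna2, 25 to 21 bases before the start, in Snrpg and, 3 times, in Hnrnpab, and not in these windows of Psme1 and Psmd12. SP1 letters occur in all but Snrpg, and ETS letters in Snrpg and Psmd12. A gene was counted when any of its windows holds the letters. Among the 32 matched genes, SP1 letters were found in 23 (71.9%), against 35.4% of 27025 genes with a RefSeq promoter. These 27025 genes were not limited to genes of the array, and shares among the other array genes were not computed. ETS letters were found in 7 of 32 (21.9%, against 7.83%), E-box letters in 4 (12.5%, against 6.86%), CCAAT letters in 12 (37.5%, against 37.5%) and the antioxidant core in 5 (15.6%, against 11.5%). The printed windows hold between 55.6% and 66.8% G and C, matches were not adjusted for base composition, and a match of letters does not show that a factor binds.

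The largest part of the decline lay between P7 and P14. In this interval all 39 members were lower, as were 69.6% of all probes, and 10 of 39 fell 2-fold or more (25.6%, against 24.7% of all probes), with a median of -0.79 against -0.58, and 0 rose (14.4% of all probes). The 10 were Kpna2 (3.43-fold), Hnrnpab (3.18-fold), Snrpg (2.78-fold), Snrpe, Snrpb2, Psme2, Hnrnpa3, Eif4a1, Cct4 and Psme1 (2.01-fold). Splicing families were 5 of these 10 and 15 of the 39 members. With columns divided by their medians 2 of 39 fell in this interval (5.13%, against 11.7% of all probes) and with quantile normalization 6 (15.4%, against 18.4%). By P14 a median of 70.1% of the loss between P7 and P21 had been reached with the deposited values, the only scaling for which this was computed. The median of all probes also dropped more before P14 than after it, with 82.8%, 55.5% and 42.25% at P7, P14 and P21. Single members ranged widely. Hnrnpab had reached 92.5% of its loss, Snrpa 91.2% and Cct4 86.0%, whereas Psmd12 had reached 28.3%, Eif4g2 38.4%, Psmb6 44.4% and Eif2s3x 49.6%. Srsf9, lower at P14 than at P21, comes out above 100%.

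From P14 to P21 the members were lower in 38 of 39 cases (71.1% of all probes were), and 4 of 39 fell 2-fold or more (10.3%, against 13.2% of all probes) and 0 rose (3.23% of all probes). They were Psme1 by 2.49-fold, Kpna2 by 2.28-fold, Hspa4 by 2.15-fold and Psmg4, from 49.9% to 24.9%. None of these 4 is a ribosomal, initiation or splicing gene, though Rps19 (1.91-fold), Eif4a1 (1.82-fold) and Snrpg (1.79-fold) came close to the threshold. The count was 0 with columns divided by their medians (5.69% of all probes) and 0 with quantile normalization (4.46%). The proteasome genes had a median of -0.77 in this interval, with Psmd12 and Psmb6 both 1.70-fold lower at P21 than at P14.

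Between E18 and P7 no member changed 2-fold, while 5.8% of all probes rose and 2.79% fell. All 4 SR protein genes were higher at P7, led by Srsf10 at 76.5% and 100%, and so were 4 of 6 snRNP and 3 of 4 hnRNP genes. These 3 counts were the same with columns divided by their medians and with quantile normalization. Both Cct genes were higher at E18 under all 3 scalings. All 5 ribosomal protein genes were higher at E18 with the deposited values, by at most 1.12-fold, but 2 of 5 were higher at P7 with columns divided by their medians and 3 of 5 with quantile normalization, so the order of these ages is not settled for them. Over all 897 probes 56.2% were higher at P7. How far such small differences can be read is shown by the values at exactly 100, which arise when both experiments had the same highest age. This holds for 8 of 39 members (20.5%), 4 at E18 (Hnrnpab, Psme1, Rpl10a and Rps27l) and 4 at P7 (Eif4a1, Hspa4, Psmd1 and Srsf10), against 46.8% of all probes. If the values are scaled as read here, the experiments behind the other 31 members had different highest ages. Of these 31 members, 12 were under 50% at P14, P21 and P56. They are both Cct genes, Hnrnpa3, Kpna2, Psme2, Psmg1, Psmg4 and all snRNP genes but Snrpc. For these 12, the highest age can only have been E18 in 1 experiment and P7 in the other. Their experiments thus moved in opposite directions in this interval. They stood apart by a median of 19.0 points at E18 and 15.5 points at P7. The order of E18 and P7 is therefore not settled for these 12 members either. The reading of the scale can be checked in part: it requires that every probe without a value of 100 has at least 2 ages at or above 50%, and 477 of 477 such probes do.

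Larger differences say more about both experiments. Means that differ by more than 50 points require that both experiments moved the same way when each lies between 0 and 100. From E18 to P56 this held for 22 of 39 members, against 43% of all probes, and from P7 to P14 for 7 of 39, against 16.7%. The 22 include all 3 Rpl genes, Rps27l, both Cct genes, Kpna2 and 5 of the 6 snRNP genes, all but Snrpd1, but none of the SR protein genes and, of the Psm genes, only Psme1, Psme2, Psmg1 and Psmg4. The absence of the SR protein genes depends on E18 as the earlier age. All of them were highest at P7, at 91.9% to 100%, and each was more than 50 points lower at P56, at 33.4% to 42.2%.

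In the last interval, P21 to P56, no member changed 2-fold (2.68% of all probes rose and 2.23% fell), and 17 of 39 were higher at P56, against 52.1% of all probes. Of the 7 proteasome genes 6 were higher, with a median of 0.43, whereas of the 32 other members 11 were, with a median of -0.07. Psmd12 went from 47.9% to 71.1% (1.48-fold), Psme1 from 15.6% to 23.7% (1.52-fold) and Psme2 from 25.1% to 35.1% (1.40-fold). Psmg4 and Psmb6 were 1.35-fold and 1.28-fold higher and Psmd1 1.07-fold, and Psmg1 was the exception at 42.9% and 42.2%. Outside the family, Rps19 was 1.65-fold higher, the most of all members, and Eif2s3x 1.44-fold. Past 1.5-fold were 2 members, Rps19 and Psme1, against 9.14% of all probes. The count of 6 of 7 was the same with columns divided by their medians and with quantile normalization (median 0.25). It was 3 of 7, with a median of 0, when values under the 25th percentile of the table (35.8%) were set to it (38.1% of all probes were then higher), since Psme1, Psme2 and Psmg4 lie under that floor at both ages and cannot differ there. At the other end, 3 of 4 SR protein genes were lower at P56 than at P21, Srsf9 by the most (53.7% and 42.2%). The largest of these differences was 23.2 points, in Psmd12, so the 2 experiments need not have agreed on any of them.

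**Figure D4:**
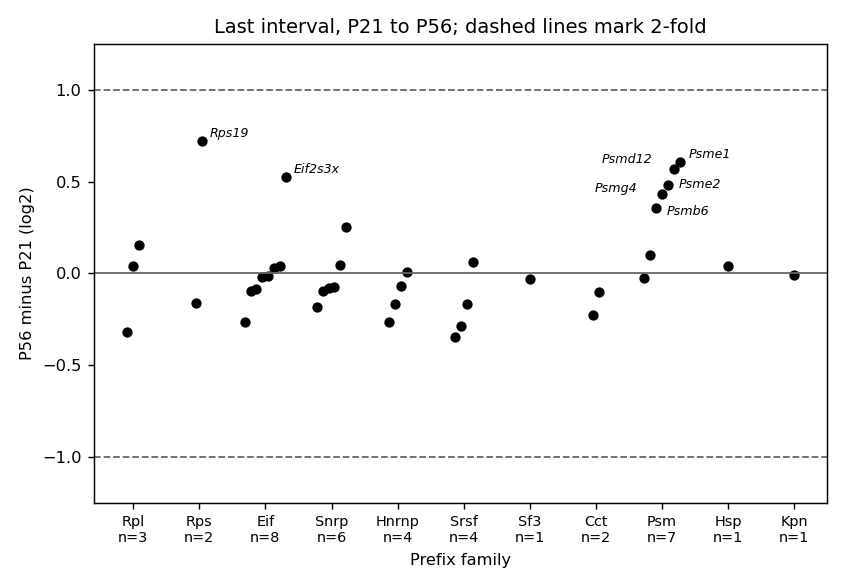
Difference between P56 and P21 (log2, y axis) of each member probe by prefix family (x axis, number of probes under each name), with dashed lines at 2-fold and names for differences over 0.3. Of the 7 Psm points 6 lie above 0, as do 11 of the 32 others, and none reaches a dashed line.

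Other genes of the same pathways, from lists of genes outside the 13 prefixes, are given beside the members. Of 61 listed genes of ribosome biogenesis and other translation 9 were measured, and 7 fell from E18 to P56 (median -1.19). Pabpc1, the poly(A)-binding protein gene, fell most (3.06-fold), and Rrs1, a ribosome assembly gene, was at 81.8% and 43.5%. Of 68 listed genes of other splicing and mRNA processing 13 were measured, and 11 fell (median -1.20), from Elavl2, a neuronal RNA-binding protein gene (4.78-fold), to Smn1, an snRNP assembly gene that stayed within 2-fold at 84.3% and 55.1%. Of 40 listed genes of other nuclear transport 8 were measured, and 6 fell (median -1.17), led by Rcc1, the exchange factor gene of Ran (3.90-fold), while the importin gene Ipo4 was at 73.9% and 66.6%. Of 71 listed genes of other chaperones, ubiquitin and proteolysis 9 were measured, and 6 fell (median -1.29). In that list the collagen chaperone gene Serpinh1, which also marks meninges, fell most (7.33-fold), and Ube2e1, a ubiquitin-conjugating enzyme gene, differed least at 67.4% and 64.9%. None of the measured genes of these lists rose. Over all 897 probes 52.5% fell and 22.6% rose, with a median of -1.07, so the medians of the lists lay close to that of the whole table. With columns divided by their medians 0 of 9, 1 of 13, 0 of 8 and 2 of 9 fell, in the order given, and with quantile normalization 0 of 9, 2 of 13, 2 of 8 and 2 of 9. Of all probes 16.4% fell under the first of these scalings and 23% under the second.

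Markers of cell types moved over the same ages, and their part in the members' values was not tested. Of 15 listed genes of dividing cells 11 were measured. They ranged from 57.2% to 95.0% at E18, from 80.2% to 100% at P7, from 4.43% to 25.1% at P14, from 0.02% to 17.2% at P21 and from 1.37% to 21.1% at P56. All 11 fell from P7 to P14, with a median of -3.24 against the members' -0.79, and at P56 only Kpna2, Snrpg and Hnrnpab among the members were as low as the highest of these markers, Pcna at 21.1%. The 6 measured markers of mature granule cells had a median of 7.00% at E18, 8.20% at P7, 80.8% at P14 and 90.2% at P56. Of these 6 markers 5 rose from E18 to P56. Neurod2 did not, with 44.5% at E18, 81.7% at P7 and 72.4% at P56. The 3 markers of Purkinje cells rose as well, so that markers of both main neurons of the cerebellum were present. The 3 myelin genes were between 0.38% and 1.08% at E18 and between 46.8% and 60.4% at P56, and the 3 astrocyte genes rose. All 5 markers of meninges and vessels fell from E18 to P56 (median -2.73). Of 2 choroid plexus genes, Igfbp2 fell and Ttr stood at 100% and 62.9%, having been at 20.4% at P21. Of 2 microglial genes 1 rose, and 0 of 3 erythroid genes was measured.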

How the data were processed

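Per the labels, each column averages 2 array experiments on total RNA of mouse cerebellum at 1 age. The deposited values were read as percent of each probe's highest age; the authors do not state this scale, and no array type, background correction, normalization or probe selection is given in the sources used here. The table may be a selection of changing probes. Symbols came from the platform's annotation, and 39 of 39 member genes were found by identifier in RefSeq (GRCm38.p6) with 0 symbols changed.

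Differences are of log2 percent, with values under 1% set to 1% (0 values of members). Rose and fell mean 2-fold or more. With 1 column per age no test was made. For the 14 genes of the table with 2 probes, the probes differed in P56 against E18 by a median of 0.38 (log2), which limits how small differences between genes can be read. Each family's genes with the largest and smallest P56 against E18 difference are given at all 5 ages, and further genes were chosen with their values in view. The members and lists were chosen with earlier results of these data known. Alternatives were other floors (10th and 25th percentile, smallest value), a pseudocount of 1%, 2 scalings of columns, thresholds of 1.5-fold and 3-fold, other sets of probes and other ages. Python 3.11.15, pandas 2.3.3 and numpy 2.4.6 were used, and the calculation was tested on simulated data.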

Additional observations from a re-analysis of the deposited data

How the results depend on the processing

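The count of 29 members that fell from E18 to P56 became 4 when each column was divided by its median, 6 after quantile normalization and 8 at 3-fold, and stayed within 1.5 times under the other alternatives. For P7 to P14, the count of 10 became 2, 6 and 2 under these settings and 31 at 1.5-fold. For P14 to P21, the count of 4 became 2 with a floor at the 10th percentile, 19 at 1.5-fold, and 0 with a floor at the 25th percentile, with either scaling of columns and at 3-fold. For P21 to P56, the count of 0 that rose became 2 at 1.5-fold (Rps19 and Psme1). The highest age was P14, P21 or P56 for 0 members, but P14 for 4, P21 for 3 and P56 for 4 once columns were divided by their medians, and P14 for 2 after quantile normalization. No member that fell from E18 to P56 turned its sign under any of the 6 floors, pseudocounts and scalings. Floors and a pseudocount cannot turn a sign. Dividing columns by their medians adds 1.01 (log2) to each difference, so a fall of 1 or more could hardly turn there. Srsf9 then ended at -0.03. Higher floors and 3-fold can by construction only lower a count. Each age has 1 sample, so leaving out replicates could not be done, and no paired analysis was possible because the ages share 1 number only.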
